A study of Mus musculus with 6 samples.

Results

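Heat shock proteins and other chaperones were followed in medullary thymic epithelial cells with and without the transcriptional regulator Aire. The set held every probe set whose annotation gave exactly 1 gene symbol and whose symbol began with Hsp and a further letter or digit, with Dnaja, Dnajb or Dnajc, or with Cct or Fkbp followed by a digit. There were 89 such probe sets among 10833 with 1 gene, and they stood for 66 of 8251 genes. A further 2 probe sets annotated to both Dnajc19 and a pseudogene of it were left out. Membership was decided by names alone and no measured value, although the set was drawn up with earlier results of these data known. The name pattern also takes in Hspg2, which encodes the matrix proteoglycan perlecan, and Hspb11, known as a subunit of the intraflagellar transport machinery of cilia, and neither is a chaperone in the usual sense.

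The wild-type animals and those carrying 2 disrupted Aire alleles (aire-/-) were all F2 offspring of a B6/129 cross, aged 3 to 5 weeks. Each genotype had 3 arrays, and each array carried the RNA of sorted cells from pooled thymi of 5 mice of both sexes, so that an array averages over animals. In the sort, cells negative for the blood cell marker CD45 and positive for the epithelial antibody G8.8 were kept where CDR1 staining was intermediate and B7.1, a costimulatory molecule of mature medullary cells, was high. The labels give neither the part of Aire that was disrupted nor any treatment, and both genotypes went through the same enzymatic digestion, density gradient, sort and 2-round T7 amplification. Signals below are normalized, in arbitrary units, and group values are geometric means over 3 arrays with SDs on the log2 scale.

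Chaperones bind unfolded proteins and help them to fold, to cross membranes or to be degraded. In the cytosol the Hsp70 and Hsp90 families and the ring-shaped chaperonin CCT share this work, while separate members serve mitochondria and the endoplasmic reticulum (ER). J proteins, the Dnaj genes, bring clients to Hsp70 and start its ATPase cycle, and FKBP proteins are prolyl isomerases, some of which act with Hsp90 on steroid receptors. Heat shock factors switch on the inducible members after heat or protein damage, and the unfolded protein response does so for the ER members. The members were therefore grouped by compartment and inducibility, from textbook knowledge.

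The measurements as a whole set limits that touch these genes. The Aire probe set read 59.9, 96.4 and 138 in wild type and 202, 297 and 211 in Aire-deficient cells; where it lies relative to the disrupted part is unknown here, so it does not check the labels. Wild-type array 2 stood apart in its 3' to 5' signal ratio, a sign of RNA or amplification quality: the beta-actin ratio was 95.8 there and 4.38 to 13.8 on the other arrays. Of the listed thymic epithelial markers 9 of 11 on the array were bright enough to test, with 0 called and summed signals of 936 to 1000 in wild type and 948 to 1170 in Aire-deficient cells. Single markers differed in direction: Epcam read 234, 251 and 130, then 102, 79.8 and 86.9, lower without overlap (log2 change -1.14, limma adjusted p = 0.11, or 0.0295 with array number as a block), and Krt18 had a change of 1.04 (adjusted p = 0.209, blocked 0.0499). The keratins Krt5 and Krt14 stayed under the dim limit of 5.53 on every array, as did Cd3e. Of 7 granulocyte markers tested 4 were called lower. Ly6g, Ltf and Ngp among them were under the dim limit on every Aire-deficient array. They entered the test only through their wild-type signals. Those not called, Mpo, Lcn2 and Csf3r, had log2 changes of -1.8, -0.24 and 0.72. The summed signal of the list was 223 to 286 in wild type and 72 to 96.1 in Aire-deficient cells. For 6 dendritic cell markers the median log2 change was 1.01 (summed signals 77 to 116 and 123 to 183), for 4 B cell markers 0.88 (60.8 to 98.3 and 111 to 132) and for 7 T cell markers 0.27 (84.9 to 151 and 89.8 to 178), with 0 called in each list. Macrophage, fibroblast, endothelial and erythroid markers had medians of 0.22, -0.06, -0.02 and -0.48, also with 0 called. With array number as a block, a pairing taken from correlations between these same arrays, further markers passed. Of all genes, limma then called 2.59% higher and 3.7% lower. Higher in Aire-deficient cells were the B cell genes Blk (limma adjusted p = 0.0238) and Pax5 (0.0306) and the dendritic cell genes Cd83 (0.0381) and Batf3 (0.0437). So were Cd68 of macrophages (0.0234) and Alas2 of erythroid cells (0.0437), while Cd14 of macrophages (0.00595) was lower. Pax5 stood at the floor, 1.8, on wild-type arrays 2 and 3. In the same lists Ms4a1 of B cells (-0.59) and Flt3 of dendritic cells (-0.69) had negative changes. So did the other tested erythroid markers, Hba-a1, Klf1 and Tfrc. The part of such cells in the values below was not tested. In pools of sorted cells, fewer cells of a kind and less RNA per cell cannot be told apart.

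The comparison between genotypes asked whether transcripts of the folding machinery depend on Aire, and no chaperone gene passed the test in the main comparison. Of the 66 genes, 56 exceeded the dim limit on at least 3 arrays and were tested with limma, with Benjamini-Hochberg adjustment over all 5950 genes tested and a threshold of 0.05. The count of members called was 0 in either direction, against 1.33% of all genes called lower and 0.387% called higher. At an unadjusted p under 0.05 there were 5 members: Hspa14, Hspb11 and Dnajb13 with higher signals in Aire-deficient cells, and Fkbp4 and Fkbp9 with lower ones. That is 8.93% of the members, against 15.1% of all genes (6.82% higher and 8.32% lower). The median log2 change of the members was 0.12, beside 0.05 for all genes tested, and 33 lay above 0 (58.9%, against 52.9% of all genes) and 23 below. A missed threshold does not show equality, so the intervals matter. The 95% interval of the change lay within 2-fold in both directions for 27 of the 56 members (48.2%, against 24.4% of all genes), and its median half-width was 0.72 on the log2 scale.

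**Figure D1:**
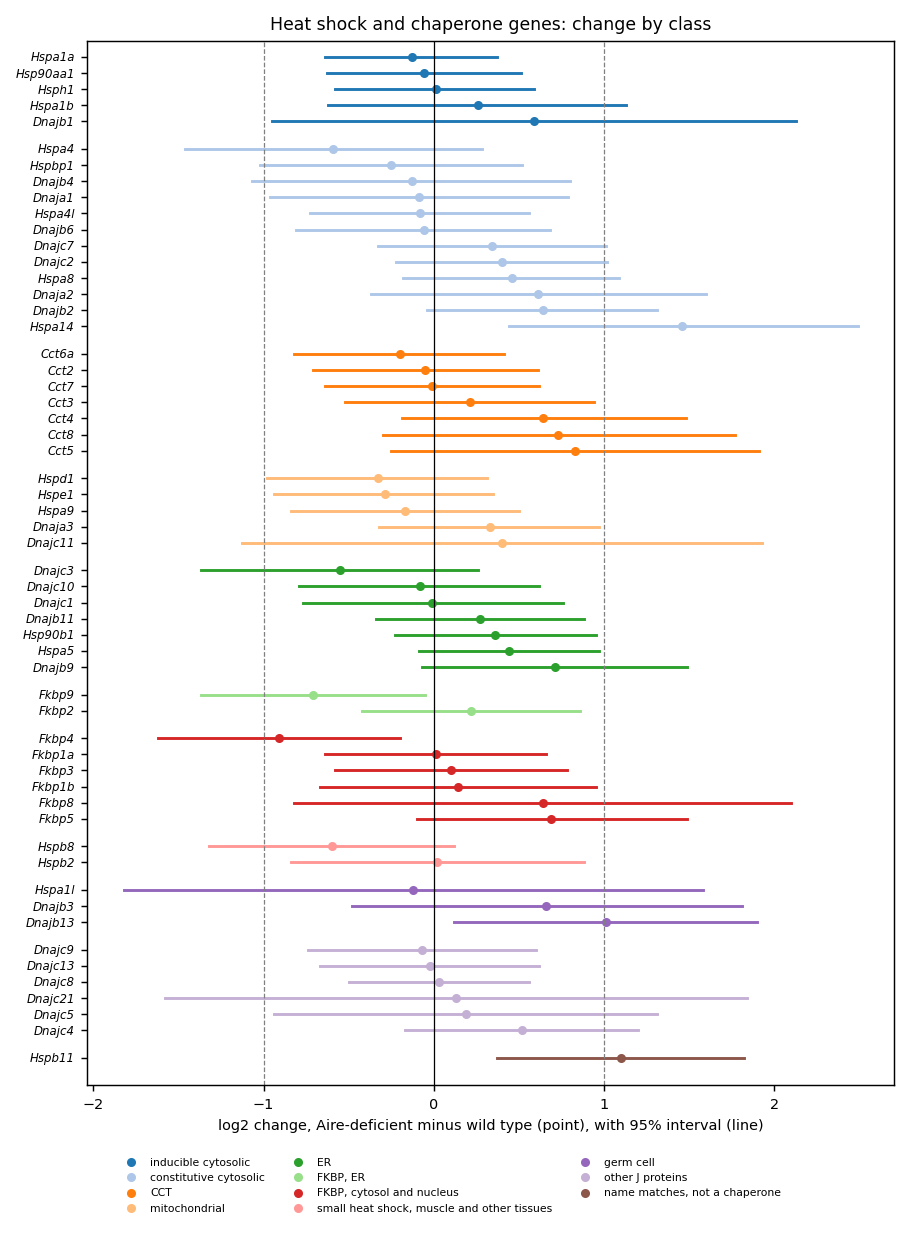
Log2 change (Aire-deficient minus wild type) of each of the 56 tested genes, with its 95% interval from the limma fit (3 arrays per group), in colours by class; dashed lines mark a 2-fold change. The intervals of 5 genes, Hspa14, Hspb11, Dnajb13, Fkbp4 and Fkbp9, lie to one side of 0, and none of these passed after adjustment.

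Groups did not overlap for 13 members. In 10 of them (17.9%) all Aire-deficient arrays lay above all wild-type arrays, against 10.6% of all genes, and in 3 (5.36%) below, against 10.7%. The 10 were Hspa14, Hspb11, Dnajb13, Cct4, Cct5, Dnajb2, Dnajc2, Dnajc4, Dnaja3 and Fkbp5, which come from 7 classes, and the 3 were Fkbp4, Fkbp9 and Cct6a. On the values as deposited the counts were 17 and 1, with 14.3% and 7.72% of all genes, and the median change of all genes was then 0.18. Leaving out wild-type array 3 gave 19 higher members (16.9% of all genes), and leaving out wild-type array 1 or Aire-deficient array 3 gave 6 lower ones (17.2% and 15.3%), as did 5 without Aire-deficient array 2 (14%). Changes of at least 2-fold without overlap were seen for 3 members, Hspa14, Hspb11 and Dnajb13, all upward, against 3.97% of all genes upward and 5.6% downward.

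Of the 6 heat-inducible cytosolic chaperones 5 were tested, with 0 called and overlapping groups for each. Hspa1a, an inducible Hsp70, read 929, 949 and 887 in wild type and 676, 1040 and 840 in Aire-deficient cells. The groups overlapped, with a log2 change of -0.13 (95% interval -0.64 to 0.37, limma adjusted p = 0.836), so that a 2-fold change in either direction lies outside the interval. On the values as deposited the change was 0.15. Hspa1b, its nearly identical neighbour in the genome, read 686, 197 and 410, then 441, 408 and 523 (log2 change 0.26, interval -0.62 to 1.13). Because the coding sequences of these genes are nearly the same, their signals may not be separate. Hsp90aa1, the inducible cytosolic Hsp90, measured 367 (SD 0.36, n = 3) and 352 (SD 0.08, n = 3), and Hsph1, a nucleotide exchange factor for Hsp70, 228 (SD 0.28, n = 3) and 229 (SD 0.17, n = 3).

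Dnajb1, the J protein induced with Hsp70, was the most variable of the inducible group. Its signals were 58.3, 10.9 and 88.6 in wild type and 40.2, 42.6 and 112 in Aire-deficient cells. The low value was that of wild-type array 2, and the log2 change turned from 0.59 (SE 0.70) to -0.32 without that array. The small heat shock protein gene Hspb1 was too dim to test, with all signals between 1.8, the floor, and 5.87. Over the 5 tested inducible genes the median change was 0.01, or -0.22 without wild-type array 2 and 0.36 on the values as deposited.

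**Figure D2:**
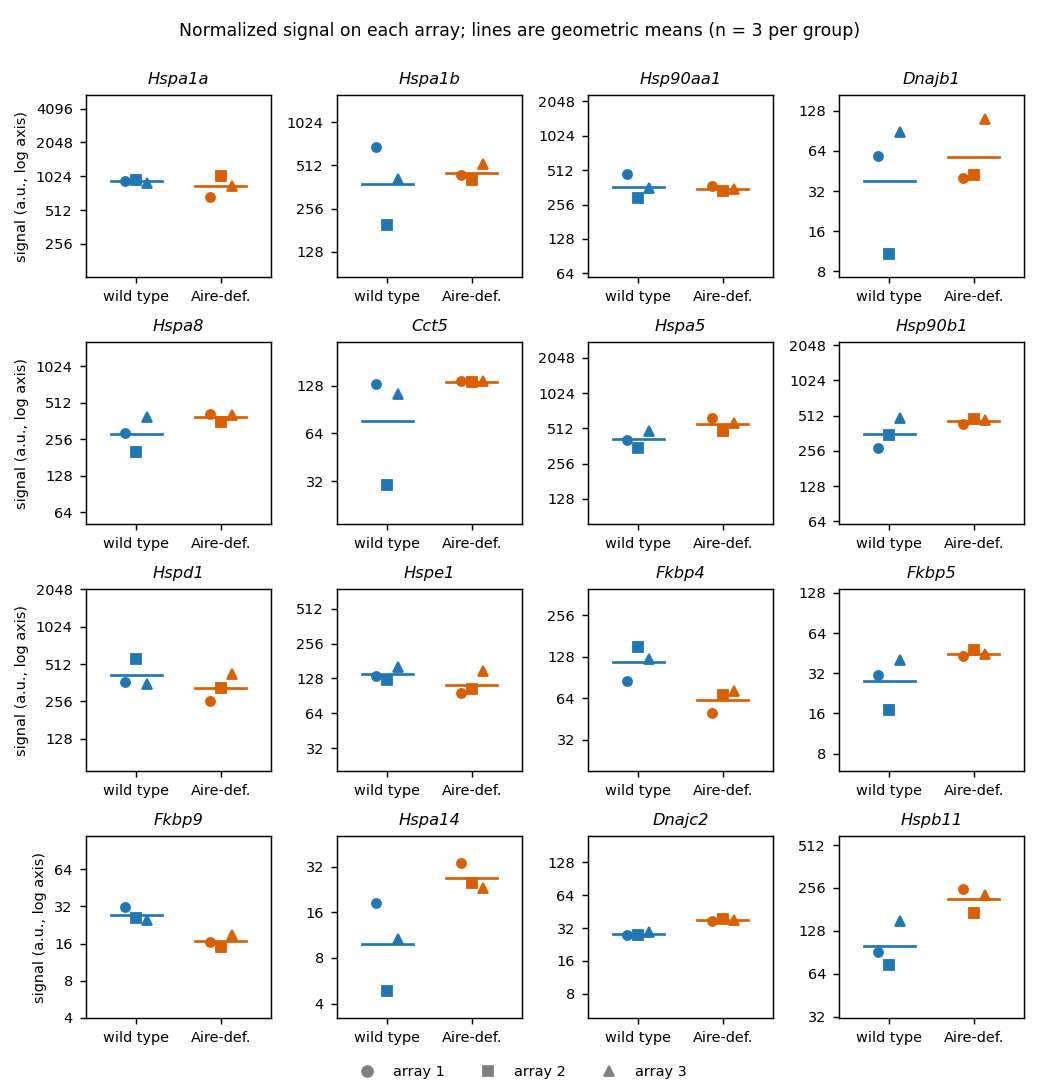
Normalized signal of 16 genes on the 3 wild-type (blue) and 3 Aire-deficient (orange) arrays, on a log axis, with marker shapes for the array number and lines at the geometric means. Hspa1a, Hsp90aa1 and Hspe1 overlap between genotypes, Hspa14, Dnajc2 and Hspb11 lie higher on all Aire-deficient arrays, and Cct5 and Dnajb1 have their lowest point on wild-type array 2.

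Among the constitutive cytosolic chaperones, Hspa14 had the largest difference of all tested members. Hspa14 is an atypical Hsp70 that works at the ribosome together with the J protein Dnajc2. It read 18.3, 4.82 and 10.7 in wild type and 33.9, 25.1 and 23.2 in Aire-deficient cells, and all Aire-deficient arrays lay higher. The difference was 2.75-fold, or 1.46 ± 0.46 (SE) on the log2 scale, with a limma adjusted p of 0.158. Hspa14 passed once array number was fitted as a block (adjusted p = 0.0334), and without wild-type array 2, its lowest point, the change was 0.95 (adjusted p = 0.259).

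Its partner Dnajc2 gave 27.9, 27.9 and 29.7 in wild type and 36.8, 38.4 and 37.7 in Aire-deficient cells. The arrays of each genotype lay very close together and the groups were apart, yet the difference was small, at 1.32-fold (log2 change 0.40, interval -0.22 to 1.02, adjusted p = 0.544). Another probe set of Dnajc2 gave 23.5, 31.1 and 40 against 28.2, 24.5 and 37.1, with overlap.

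The other constitutive members gave smaller or more variable differences. Hspa8, the main housekeeping Hsp70, read 291, 203 and 393 in wild type and 411, 356 and 408 in Aire-deficient cells; the groups overlapped (log2 change 0.46, interval -0.18 to 1.09). Dnajb2, a J protein that delivers ubiquitinated clients, read 17.2, 15.5 and 17.4, then 20.4, 29.9 and 28.6, without overlap (log2 change 0.64, adjusted p = 0.362). Dnaja1, a general partner of Hsp70, ranged from 105 to 335 in wild type and from 152 to 219 in Aire-deficient cells. Hspa4, an exchange factor of the Hsp110 family, had 5 probe sets, and the 4 bright enough gave log2 changes from -0.59 to 0.90. The class of 12 tested genes was split evenly, with 6 changes above 0 and 6 below and a median of 0.14; without wild-type array 1 the median was 0.35. Dnajb5 was too dim to test.

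CCT is a double ring of related subunits that folds actin and tubulin, and its 7 tested subunit genes differed among themselves, with 0 called. Cct2, Cct3, Cct6a and Cct7 had changes between -0.20 and 0.21. Cct4, Cct5 and Cct8 had changes of 0.64, 0.83 and 0.73. Each of these was lowest on wild-type array 2, as were Cct2 (26.1) and Cct3 (35). Cct5 shows this most plainly, with 131, 30.3 and 114 in wild type and 137, 135 and 137 in Aire-deficient cells. Without that array the changes of Cct4, Cct5 and Cct8 were 0.20, 0.16 and 0.16, and the median of the class went from 0.21 to 0; on the values as deposited it was 0.43. Tcp1, the subunit whose symbol does not follow the Cct pattern, read 15.1, 4.55 and 16.6, then 18.9, 14.7 and 14 (log2 change 0.59, adjusted p = 0.615), again with its low point on wild-type array 2. Cct6a was the exception that lay lower without overlap, at 53.4, 52.3 and 46.3 against 45.9, 40.7 and 45.2, a difference of 1.15-fold (adjusted p = 0.785), although on the values as deposited its change was 0.03.

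Wild-type array 2 was often the lowest for chaperones. It held the lowest of the 6 values for 23 of the 56 members (41.1%), against 28.2% of all genes, and the highest for 10 members (17.9%, against 26.9%). The median of all members was 0.23 under the genes' own means there, and between -0.03 and 0.10 on the other 5 arrays. The part of its 3' to 5' ratio in these values was not tested. Without the array the median change of the members was 0.08.

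**Figure D3:**
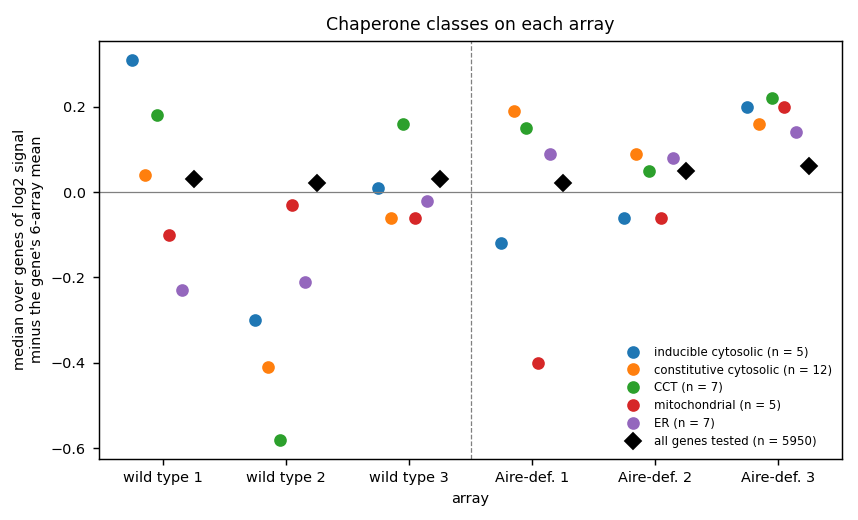
For each array, the median over the genes of a class of the log2 signal minus the gene's mean over 6 arrays; black diamonds give all 5950 genes tested. The CCT class lies at -0.58 on wild-type array 2 and between 0.05 and 0.22 elsewhere, while the mitochondrial class is lowest on Aire-deficient array 1, at -0.40.

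The median change of the 5 tested mitochondrial chaperones was -0.17, or 0.17 on the values as deposited, with 0 called. Hspd1 and Hspe1 encode the mitochondrial chaperonin and its lid, and they lie next to each other in the genome and read in opposite directions from a shared promoter. The stretch between them is shown because both genes hold a heat shock element there. A heat shock element is a run of alternating GAA and TTC units; searched on both strands as 3 such units in a row with 2 free bases between neighbours, in the 300 bases around the start sites, it was found for 4 of 58 members with a window in the RefSeq table (build GRCm38.p6), or 6.9%, against 0.66% of all genes with a window. The 4 were Hspd1 and Hspe1, which share a stretch, Hsph1, whose match is not shown, and Dnajb6. Of the 5 inducible cytosolic genes with a window, Hsph1 alone held the element in this spelling. Capitals mark the matches, which overlap in the lines for Hspd1 and Hspe1, and these lines are the same stretch on opposite strands. The stretches are chr1:55088029-55088106 on the minus strand for Hspd1 and on the plus strand for Hspe1, and chr5:29735822-29735894 on the plus strand for Dnajb6.
Hspd1: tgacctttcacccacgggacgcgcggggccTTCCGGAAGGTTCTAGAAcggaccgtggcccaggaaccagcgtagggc
Hspe1: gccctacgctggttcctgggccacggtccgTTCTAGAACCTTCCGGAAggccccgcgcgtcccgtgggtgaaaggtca
Dnajb6: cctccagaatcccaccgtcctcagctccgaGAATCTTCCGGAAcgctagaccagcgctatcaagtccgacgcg

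Both genes beside this stretch overlapped between genotypes. Hspd1 read 365, 561 and 351 in wild type and 258, 327 and 427 in Aire-deficient cells, and Hspe1 read 135, 123 and 162, then 95, 103 and 149. The log2 changes were -0.33 (interval -0.98 to 0.31) and -0.29 (interval -0.94 to 0.35). On the values as deposited they were 0.02 and 0.01, and the other, dimmer probe set of Hspd1 had a change of 0.14. Dnajb6, a J protein that holds back aggregation, measured 127 (SD 0.42, n = 3) and 121 (SD 0.45, n = 3).

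Of the other mitochondrial members, Hspa9, the Hsp70 of the matrix that pulls in imported proteins, read 193, 181 and 297, then 151, 197 and 245 (log2 change -0.17, or 0.17 on the values as deposited). Dnaja3, its J protein partner, read 38.2, 44.5 and 45.6, then 46, 63.1 and 52.6; all Aire-deficient arrays lay above, by 1.25-fold, with an adjusted p of 0.649. Dnajc11, a protein of the mitochondrial membranes, was erratic, at 2.15 to 15.4 in wild type. Dnajc15 was too dim to test. Of 9 tested genes for mitochondrial import and proteases outside the name pattern 0 passed, with a median change of 0.17.

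The ER chaperones had a median change of 0.27 over 7 tested genes, 4 above 0 and 3 below, with 0 called and groups that overlapped for each gene. Within same-number pairs of arrays the class median was 0.30, 0.37 and 0.17, and without wild-type array 2 it was 0.31. The range with 1 array left out ran from 0.16 to 0.42, and on the values as deposited the median was 0.56. Hspa5 (BiP), the Hsp70 of the ER and the sensor of its folding load, read 407, 350 and 489 in wild type and 623, 489 and 567 in Aire-deficient cells. The groups met at 489, and the difference was 1.35-fold (log2 change 0.44, interval -0.09 to 0.97, adjusted p = 0.436). Hsp90b1, the Hsp90 of the ER, read 272, 351 and 485, then 434, 481 and 468 (log2 change 0.36, interval -0.23 to 0.95). Dnajb9, a J protein of BiP that is switched on by the unfolded protein response, gave 51.7, 39.6 and 28.1, then 90, 51.2 and 54.3. Its Aire-deficient values were higher in every same-number pair, with 1 crossing between groups, and the log2 change was 0.71 (interval -0.07 to 1.49, adjusted p = 0.385). The other probe set of Dnajb9 gave a change of 0.75.

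Dnajc3, a J protein that restrains the ER stress kinase PERK, went the other way on the probe set that stood for it. It read 94.4, 173 and 93.4 in wild type and 72.6, 117 and 56.8 in Aire-deficient cells, a log2 change of -0.55 (interval -1.37 to 0.26). Another of its probe sets gave 19.6, 15.9 and 15.4, then 17.8, 23.9 and 28.5, a change of 0.45, and the third that was bright enough had a change of -0.31. Dnajb11, a luminal partner of BiP, measured 130 and 157, and Dnajc1 and Dnajc10 had changes of -0.01 and -0.08.

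Some ER members hold a promoter motif. The grouping used no sequence, but textbook knowledge already ties the ER members to the unfolded protein response. The share below is therefore no independent check of the class. The ER stress element, CCAAT and CCACG with 9 free bases between them, bound by factors of the unfolded protein response, was found on either strand for 3 of the 7 ER genes with a window, Hspa5, Hsp90b1 and Dnajc3, against 0.14% of all genes with a window, and for 0 members of other classes. These sequences are shown because the motif was found in this class and in no other; a match is letters in a window and no evidence of use here. Lines read 5' to 3' on the strand of the gene, and capitals mark the element. In the Hsp90b1 line nearer to the start the element lies on the opposite strand, so the capitals there are its reverse complement. Hspa5 is at chr2:34771995-34772073 on the plus strand, the Hsp90b1 stretches are at chr10:86705608-86705686 and chr10:86705503-86705581 on the minus strand, and Dnajc3 is at chr14:118937797-118937875 on the plus strand, all in GRCm38.p6 from RefSeq.
Hspa5: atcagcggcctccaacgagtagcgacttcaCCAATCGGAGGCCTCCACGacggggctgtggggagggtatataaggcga
Hsp90b1, farther from the start: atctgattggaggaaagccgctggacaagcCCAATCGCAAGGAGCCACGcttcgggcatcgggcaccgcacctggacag
Hsp90b1, nearer to the start: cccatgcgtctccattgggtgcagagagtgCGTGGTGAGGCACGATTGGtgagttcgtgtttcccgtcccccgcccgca
Dnajc3: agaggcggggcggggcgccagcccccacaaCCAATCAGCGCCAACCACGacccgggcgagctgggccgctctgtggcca

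Of these 3 genes, Hspa5 and Hsp90b1 had positive and Dnajc3 a negative change on the probe sets used. A list of other ER folding and stress genes without such names had 19 tested members, of which 0 passed without the block. With it 2 were called higher, Creld2 and Sec61b, where 2.59% of all genes were called higher and 3.7% lower. In the list 4 (21.1%, against 10.6% of all genes) lay higher without overlap, and the median change was 0.53. The largest were Creld2, an ER stress protein, at 75.8, 20.8 and 83.8 against 165, 126 and 123 (adjusted p = 0.195, with the block 0.0373), and Sec61b, a subunit of the ER translocon, at 29.9, 21.5 and 37.4 against 71.9, 86.3 and 55.9 (adjusted p = 0.0833, with the block 0.034). Trib3, a target of the stress factor CHOP, read 6.52, 9.35 and 7.62, then 15.8, 17.2 and 18.6 (adjusted p = 0.123). Among genes that fold glycoproteins or form disulfides, Canx, Pdia6 and P4hb had changes of -0.24, 0.10 and 0.13. Pdia3, Pdia4 and Ero1a had changes of 0.63, 0.51 and 0.45. Without wild-type array 2, the lowest array for Creld2 and Sec61b, the median of the list was 0.22.

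The FKBP genes held both directions. Fkbp4, the Hsp90 partner known as FKBP52 that promotes steroid receptor activity, read 85.6, 152 and 124 in wild type and 49.7, 68.2 and 72.1 in Aire-deficient cells. The groups did not overlap, and the signal was 1.88-fold lower (log2 change -0.91 ± 0.32 SE, interval -1.62 to -0.20), with an adjusted p of 0.209. The probe set was of the type whose probes may bind a sequence family, and the other one for Fkbp4 gave 28.2, 21.3 and 31.9, then 27.9, 18.2 and 19.8, with overlap. The probe sets that stood for Cct6a, Dnajc8 and Hspbp1 were of the same type. Fkbp5, known as FKBP51, counteracts Fkbp4 on the glucocorticoid receptor and is itself a glucocorticoid target. It read 31.1, 17.1 and 40.4, then 43, 47.4 and 44.4, higher on all Aire-deficient arrays (1.62-fold, log2 change 0.69, interval -0.10 to 1.49, adjusted p = 0.41). Without wild-type array 2 the changes of Fkbp4 and Fkbp5 were -0.72 and 0.34.

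Other glucocorticoid targets gave values in both directions, with a median of 0.13 (-0.31 without wild-type array 2), and 0 of 6 passed. Sgk1 had a change of -0.97 and passed only with the block (limma adjusted p = 0.343, or 0.0499 with it). Zbtb16 had a change of 1.62 (limma adjusted p = 0.202, or 0.0801 with the block). Zbtb16 read 1.8, the floor, 4.15 and 6.62 in wild type and 11, 8.17 and 16 in Aire-deficient cells. It entered the test only through its Aire-deficient signals. Among FKBP proteins of the ER, Fkbp9 read 31.9, 25.7 and 24.8 in wild type and 16.5, 14.9 and 18.9 in Aire-deficient cells. All Aire-deficient arrays were lower, by 1.63-fold (log2 change -0.71, interval -1.37 to -0.05, adjusted p = 0.295), and the change was -0.75 without wild-type array 2. Fkbp2 measured 36.8 and 42.8. Fkbp1a, the main target of the drug FK506, measured 86.9 and 87.5, with an interval of -0.64 to 0.66, and Fkbp3 and Fkbp1b had changes of 0.10 and 0.14. Fkbp8, an isomerase of mitochondrial and ER membranes, was dim and scattered (2.67 to 15.8 in wild type), Fkbp11 was at the floor on all 6 arrays, and Fkbp7 was too dim to test.

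Several members are best known from testis or muscle, the kind of restricted expression that medullary epithelium can show. Hspa2, the testis Hsp70, read 1.8, 4.45 and 4.63 in wild type and stood at the floor, 1.8, on each Aire-deficient array, all under the dim limit and therefore not tested. Cct6b and Dnajb8, also of testis, were likewise not tested, and Hspa1l stood near the limit, at 6.32, 6.06 and 1.8 against 1.8, 7.93 and 3.73. For Dnajb13, a protein of the sperm tail, the 2 probe sets contradicted each other. The one with the higher mean gave 23.7, 13.6 and 20.9, then 64.6, 25.1 and 34.1 (2.01-fold higher, adjusted p = 0.265), while the other gave 13.6, 10.1 and 7.32, then 2.02, 7.22 and 6.42. Both were free of overlap, in opposite directions. Dnajb3 had a change of 0.66 (adjusted p = 0.596). Of the small heat shock proteins of muscle, Hspb8 read 43.9, 60.5 and 65.4, then 28.5, 35.7 and 48.9 (log2 change -0.60, adjusted p = 0.431), and Hspb2 overlapped, at 15.3, 40.3 and 24 against 30.4, 23.8 and 21.3.

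**Figure D4:**
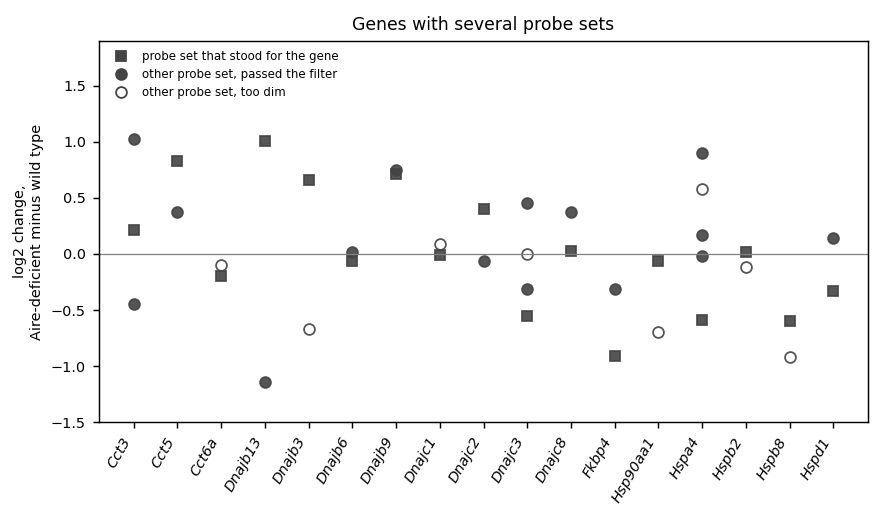
Log2 change of each probe set of the 17 genes that had several; squares are the probe sets that stood for the gene, filled circles others that passed the filter, open circles those too dim. Dnajb13 has 1.01 and -1.14, Cct3 spans -0.45 to 1.02 and Hspa4 -0.59 to 0.90, while the values of Dnajb9 agree at 0.71 and 0.75.

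Disagreement between probe sets was common. Of the 17 genes with several probe sets, 7 had probe sets of opposite sign among those bright enough: Cct3, Dnajb13, Dnajb6, Dnajc2, Dnajc3, Hspa4 and Hspd1. When every probe set was tested on its own, 71 member probe sets entered and 0 passed (limma, adjusted over 6987 probe sets; 5 at an unadjusted p under 0.05, or 7.04%, against 14.6% of all probe sets).

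Among the remaining J proteins, Dnajc8, which is linked to splicing, measured 351 (SD 0.13, n = 3) and 359 (SD 0.18, n = 3), with an interval of -0.50 to 0.56. Dnajc13, of endosomes, had a change of -0.02, and Dnajc9, a histone chaperone, of -0.07. Dnajc4 read 12.7, 15.5 and 14.6, then 22, 23.2 and 16.5, without overlap (log2 change 0.52, adjusted p = 0.473). Dnajc17 lay at the floor on all wild-type arrays and gave 14.4, 6 and 3.52 on the Aire-deficient arrays, too dim to be tested.

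Hspb11 had the smallest p of all members, although it is a chaperone by name alone. It read 90.7, 74 and 150 in wild type and 250, 172 and 229 in Aire-deficient cells, without overlap. The signal was 2.14-fold higher (log2 change 1.10 ± 0.33 SE, interval 0.37 to 1.82), with a limma adjusted p of 0.137. It passed with the replicate block (adjusted p = 0.0294), and without wild-type array 2 the change was 0.88 (adjusted p = 0.231). With the block, Hspa14 and Hspb11 were the 2 members called, 3.57% of those tested, against 2.59% of all genes called higher and 3.7% called lower; 13 members (23.2%) then had an unadjusted p under 0.05, against 21.6% of all genes. Hspg2 was too dim to test.

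Regulators and partners of the chaperones outside the name pattern also gave 0 calls. Among 17 tested heat shock factors and cochaperones the median change was 0.06. Cryaa, the lens small heat shock protein, read 19.7, 12.8 and 18.6, then 7.5, 7.83 and 2.08, lower without overlap (log2 change -1.75, adjusted p = 0.139), and Cdc37, which loads kinases onto Hsp90, gave 20.1, 16.7 and 29.2, then 39.8, 39.1 and 32.8 (adjusted p = 0.274). Immediate early genes, which respond within minutes to stress and to tissue dissociation, had a median change of -0.41 over 19 tested genes, or -0.67 without wild-type array 2, with 2 lower without overlap (10.5%, against 10.7% of all genes). These were Nr4a1, at 23.2, 26.5 and 26.1 against 16.7, 11.2 and 15.4, and Atf3, at 194, 153 and 183 against 134, 75.9 and 125. On the values as deposited the median of the list was -0.11. The median of the inducible chaperones was 0.01 in the main comparison and 0.36 on the values as deposited, and the part of dissociation in these values was not tested.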

How the data were processed

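The authors deposited 1 linear signal intensity for each probe set and array; which software, background correction and scaling lie behind it is not stated. After 66 control probe sets were dropped, 12422 remained. Arrays were brought to 1 distribution by quantile normalization over the 6 arrays, a floor of 1.8 (20th percentile of all values) was set, and values were log2 transformed. A gene was represented by its brightest probe set on average and entered the test if it exceeded 5.53, the 40th percentile and dim limit, on at least 3 arrays. The test between groups of 3 was that of limma 3.58.1 under R 4.3.3 (2-sided, variance trend, Benjamini-Hochberg adjustment over 5950 genes), after a trial on simulated data. The number of arrays limits the precision. Pools hold different animals; the spread behind each p-value includes amplification and hybridisation.

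Arrays sharing a label number had correlated deviations from their group means (0.38, 0.21 and 0.19; other combinations -0.26 to 0.08). Within a genotype the deviations cancel out, so positive correlations for the same number push down those of the other combinations. Pairing by number was adopted from these correlations, on the same arrays that gave the results with the block. The labels do not explain the numbers, and the pairing has no independent support here. Members, classes and gene lists were chosen with earlier results of these data known. Members named are those called, the 4 with the smallest p in each class, textbook leads and genes whose probe sets disagree in sign; others account for every class. Tcp1, Canx, Pdia6, P4hb, Pdia3, Pdia4, Ero1a, Sgk1, Zbtb16 and single cell markers were picked after their values were seen. Promoter windows (RefSeq, GRCm38.p6) run from 250 bases before to 50 after each start, and printed stretches hold the match with up to 30 bases on either side. Figures were drawn with matplotlib 3.10.9.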

Additional observations from a re-analysis of the deposited data

How the results depend on the processing

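No chaperone gene was called under 16 of the 17 alternatives, which varied the scaling, the floor, the filter, the variance model, the weight of arrays, the choice of probe set and the arrays included. The exception was the replicate block, the array number as a paired term, where Hspa14 (1.46, adjusted p = 0.0334) and Hspb11 (1.10, adjusted p = 0.0294) made 2 members called higher and 0 lower, beside 154 of all genes higher and 220 lower; it changed no other call of a member. The smallest adjusted p of a member lay between 0.0546 and 0.332 under the other alternatives.

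On the values as deposited and after median scaling the median of all genes was 0.18. Members not overlapping were then 17 higher and 1 lower. Of all genes, 14.3% and 15.8% lay higher without overlap, and 7.72% and 8.37% lower, in that order of settings. Medians were then 0.36 (inducible), 0.42 (constitutive), 0.43 or 0.44 (CCT), 0.56 (ER), 0.17 (mitochondrial) and 0.30 or 0.31 (all members), and 63 or 57 of all genes were higher. Signs turned for Cct6a (0.03), Dnajb6 (0.25), Dnajc9 (0.11), Hsp90aa1 (0.31), Hspa1a (0.15), Hspa9 (0.17), Hspd1 (0.02) and Hspe1 (0.01). With a floor at the 40th percentile 46 of all genes were higher, and Dnajc11 (-0.09), Dnajc21 (-0.21), Dnajc5 (-0.05) and Hspa1l (0.07) turned. Without a filter on dim signals 12 of all genes were lower and 4 higher, and the constitutive and mitochondrial medians were -0.06 and 0.08. With signals above the dim limit on all 6 arrays 31 of all genes were lower and the constitutive median was -0.06. Without a variance trend 11 of all genes were higher. With array weights 139 were lower and 67 higher, and Cct3 (-0.01), Dnajb1 (-0.09), Dnajc5 (-0.13), Hspa1l (0.71) and Hsph1 (-0.12) turned. Testing every probe set gave 5 of 71 member probe sets lower without overlap, against 10.1% of all probe sets tested. Averaging probe sets turned Dnajb13 (-0.07), Hspa4 (0.21) and Hspb2 (-0.05). The cause of these turns was not tested.

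With 1 array left out in turn, members not overlapping were 3 to 6 lower and 11 to 19 higher. The shares of all genes were then 14% to 17.2% and 14.3% to 17.8%, against 10.7% and 10.6% with all arrays. Limma called 13 to 53 of all genes lower and 1 to 11 higher. Medians ran from -0.22 to 0.17 (inducible), 0.05 to 0.35 (constitutive), 0 to 0.45 (CCT), 0.16 to 0.42 (ER), -0.34 to 0.01 (mitochondrial) and 0.05 to 0.18 (all members). Changes spanned 0 for Cct3 (-0.03 to 0.45), Dnajb1 (-0.32 to 1.19), Dnajb6 (-0.32 to 0.18), Dnajc11 (-0.26 to 1.16), Dnajc21 (-0.78 to 0.87), Dnajc5 (-0.29 to 0.54), Dnajc9 (-0.20 to 0.06), Hsp90aa1 (-0.23 to 0.13), Hspa1a (-0.29 to 0.02), Hspa1b (-0.22 to 0.68), Hspa1l (-0.72 to 0.41), Hspa9 (-0.34 to 0.06), Hspb2 (-0.32 to 0.38) and Hsph1 (-0.09 to 0.17). The other 27 of the 41 member genes followed kept their sign.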
